A study of Mus musculus with 6 samples.

Results

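Pericyte genes were examined in whole mouse hearts at embryonic day 13.5 (e13.5). The group comprised 8 genes (Rgs5, Pdgfrb, Cspg4, Kcnj8, Abcc9, Anpep, Higd1b and Ndufa4l2) of the 45792 genes in the deposited count table, matched by gene symbol. Rgs5 was chosen by its measured level, which had been seen to be lower in the mutant hearts of this same comparison, so its values are a description and carry no test. The other genes were taken as further known pericyte genes, to ask whether the difference in Rgs5 was shared by them.

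Pericytes are the mural cells that wrap capillaries and share their basement membrane. Endothelial cells recruit them by secreting PDGF-B, which acts on the receptor PDGFRβ on the mural cell surface. In the embryonic heart most of them descend from the epicardium, the outer cell layer of the heart, and the vessels they cover are the growing coronary vessels. None of the genes studied here is exclusive to pericytes, since vascular smooth muscle cells, fibroblasts or cardiomyocytes express several of them.

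Each library was made from the RNA of an individual heart, 3 labelled as controls (WT, genotype wild-type) and 3 as mutants (KO, genotype Tie2Cre INO80 flox/flox). All 6 are labelled C57BL/6, although the study describes mixed backgrounds and counts every genotype other than Tie2Cre;Ino80 fl/fl as a control. The Tie2 promoter drives Cre in endothelial and endocardial cells and their descendants, and also in blood cells, so that Ino80, the ATPase of a chromatin remodelling complex, was to be lost there. Pericytes of epicardial origin do not descend from these cells. Ages beyond the day of gestation, litters and sexes of the hearts were not used here.

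Libraries held between 28948836 and 89675692 counts. Counts per M counts (CPM) were scaled by the TMM method, and 17125 genes passed the filter on low counts, among them 7 of the 8 pericyte genes. Counts over the whole Ino80 gene were 31.5 ± 1.26 CPM in controls and 34.0 ± 2.35 in mutants (SD, n = 3 each). They take in cells without Cre and the exons that Cre leaves in place, since the study describes a single exon flanked by Cre target sites. These counts so do not check the deletion, and the hearts are called control and mutant by their labels alone. In endothelial cells isolated from later mutant hearts, the study could not detect Ino80 mRNA by quantitative PCR. The hearts had the identity their label gives, with 8 cardiomyocyte genes together at 11798 to 15529 CPM, and Nkx2-1, a lung and thyroid factor, had 0 counts in every heart. Control replicate 1 lay nearer to the mutant hearts than the other controls did for many of the genes below, and calls that change without it are given beside the genes and lists concerned. It was singled out by these values, so smaller p-values without it are descriptions and not support. On leaving out any other single heart, none of the genes in the lists was called, Rgs5 aside.

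Rgs5 encodes a GTPase-activating protein that ends signalling by Gq and Gi proteins and is among the most used markers of pericytes. Its level was 44.2, 99.95 and 101 CPM in control replicates 1 to 3 and 12.8, 11.0 and 16.1 CPM in mutant replicates 1 to 3. Every mutant heart lay below every control heart, and the lowest control heart was replicate 1. The means were 81.7 ± 32.4 CPM in controls and 13.3 ± 2.55 CPM in mutants (SD, n = 3 each), a log2 fold change of -2.62 (SE 0.31) or 6.17-fold in favour of the controls. The values rest on 1684, 2936 and 3267 counts in the control hearts and on 1179, 470 and 470 in the mutant hearts, so counting error was small beside the spread between hearts. Without control replicate 1 the log2 fold change was -2.92. Among the 10180 tested genes with a mean of at least 10 CPM, 0 had a lower log2 fold change than Rgs5, and among all 17125 tested genes 21 had, which describes how far down the list this gene stood. In RNA from whole hearts, fewer cells of a type and less RNA per cell cannot be told apart.

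**Figure D1:**
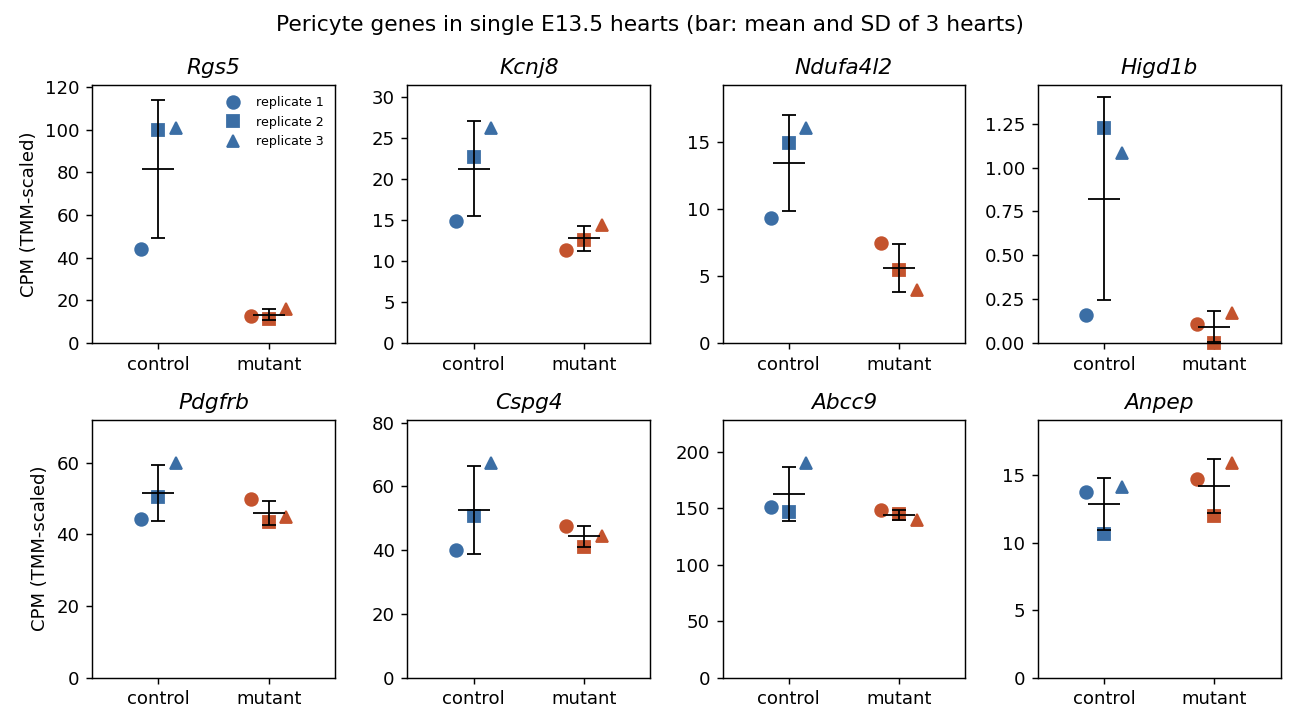
Level of the 8 pericyte genes in each heart, in TMM-scaled CPM, with controls on the left and mutants on the right of each panel and a bar at the mean with its SD (n = 3). The 3 mutant hearts lie below all 3 control hearts for Rgs5, Kcnj8 and Ndufa4l2, and the groups overlap for the other genes.

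The difference in Rgs5 remained when it was set against another pericyte gene of the same heart. The ratio of Rgs5 to Pdgfrb was 0.999, 1.98 and 1.68 in the control hearts and 0.256, 0.254 and 0.358 in the mutant hearts, with no overlap. Likewise, Rgs5 exceeded the mean of the other 7 genes by 1.28, 2.11 and 1.89 on the log2(CPM + 1) scale in controls. In mutants the same difference was -0.41, -0.44 and -0.009. These are again descriptions, because Rgs5 was chosen for its low level in the mutants.

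The gene for the receptor, Pdgfrb, which encodes the PDGF-B receptor needed for pericyte recruitment, was similar in the groups. It was measured at 44.3, 50.4 and 60.0 CPM in control hearts and at 49.8, 43.4 and 44.9 CPM in mutant hearts. The lowest value of all was in a mutant heart and the next lowest in control replicate 1. The log2 fold change was -0.16 (SE 0.12, 95% interval -0.43 to 0.11, adjusted p = 0.46, quasi-likelihood test of edgeR, adjusted by Benjamini-Hochberg across the 17125 genes).

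Cspg4 encodes NG2, a transmembrane proteoglycan of the pericyte surface. Its level was 40.0, 50.6 and 67.5 CPM in controls and 47.5, 41.1 and 44.5 CPM in mutants. Control replicate 1 was the lowest of the 6 hearts, and the groups overlapped. The log2 fold change was -0.25 (SE 0.17, 95% interval -0.64 to 0.15, edgeR adjusted p = 0.44).

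Anpep encodes aminopeptidase N (CD13), a membrane peptidase that pericytes share with fibroblasts and some blood cells. It stood at 13.8, 10.7 and 14.1 CPM in controls and at 14.7, 12.01 and 15.9 CPM in mutants. Alone among the 7 tested pericyte genes it had a higher mean in the mutants, with a log2 fold change of 0.14 (SE 0.15, 95% interval -0.20 to 0.48, edgeR adjusted p = 0.61), and the hearts overlapped.

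Kcnj8 and Abcc9 encode the subunits of the vascular ATP-sensitive potassium channel, which couples the metabolic state of a mural cell to its membrane potential. Kcnj8 makes the pore (Kir6.1) and Abcc9 the regulatory subunit (SUR2), which also pairs with the Kir6.2 pore, the product of Kcnj11, in cardiomyocytes. The genes are neighbours on the same strand, Kcnj8 at chr6:142564837-142571614 and Abcc9 at chr6:142587862-142702315 (GRCm38), with 16.2 kb between them.

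Kcnj8 was measured at 14.9, 22.6 and 26.2 CPM in control hearts and at 11.3, 12.6 and 14.4 CPM in mutant hearts. The groups did not overlap, but the lowest control (replicate 1) and the highest mutant were close. The means were 21.3 ± 5.80 and 12.7 ± 1.53 CPM, a log2 fold change of -0.74 (SE 0.20, 95% interval -1.20 to -0.28, edgeR adjusted p = 0.126). This did not pass the threshold of 0.05 in the fit of all 6 hearts. Without control replicate 1 it was -0.94 with an edgeR adjusted p of 0.013, and DESeq2 on all 6 hearts gave an adjusted p of 0.0074. Leaving out any other single heart gave edgeR adjusted p-values from 0.18 to 0.31.

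Abcc9 stood at 151, 147 and 190 CPM in controls and at 148, 145 and 140 CPM in mutants. The ranges overlapped through control replicate 2, and the log2 fold change was -0.17 (SE 0.10, 95% interval -0.42 to 0.066, edgeR adjusted p = 0.38). The ratio of Kcnj8 to Abcc9 was 0.130 ± 0.029 in controls and 0.0886 ± 0.013 in mutants (SD, n = 3 each, exact two-sided permutation p = 0.2, 0.267 after Benjamini-Hochberg adjustment over 4 ratios), so unequal change of the 2 channel genes was not shown. With 3 hearts a group, such a test cannot give a p below 0.1. Kcnj11 was 19.4 ± 3.06 CPM in controls and 17.0 ± 0.81 in mutants, and its log2 fold change was -0.19 (edgeR adjusted p = 0.42).

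The remaining members act in mitochondria. Ndufa4l2 encodes a relative of the cytochrome c oxidase subunit NDUFA4 that is induced by the hypoxia factor HIF-1 and is abundant in pericytes. It was measured at 9.35, 14.9 and 16.1 CPM in controls and at 7.45, 5.43 and 3.93 CPM in mutants. All mutant hearts lay below all control hearts, with control replicate 1 again the lowest control. The means were 13.4 ± 3.58 and 5.604 ± 1.77 CPM, 2.36-fold apart, and the log2 fold change was -1.24 (SE 0.27, 95% interval -1.85 to -0.62, edgeR adjusted p = 0.091). It became -1.44 with an edgeR adjusted p of 0.025 without control replicate 1, and DESeq2 gave an adjusted p of 1.76e-04. Leaving out any other single heart gave edgeR adjusted p-values from 0.16 to 0.26. The annotated end of Ndufa4l2 overlaps that of Shmt2 on the other strand, and whether counting used strand is not given in the sources used here. Shmt2 was more abundant (mean 82.6 CPM) and had a log2 fold change of -0.24 (edgeR adjusted p = 0.17).

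Higd1b encodes a small HIG1 domain protein of mitochondria found in pericytes. Only 6, 36 and 35 counts were assigned to it in the control hearts and 10, 0 and 5 in the mutant hearts, too few for the filter, so it was left out of the 17125 tested genes. Expressed as levels these were 0.158, 1.23 and 1.08 CPM and 0.108, 0 and 0.171 CPM. Control replicate 1 lay below the highest mutant heart, and the 0 in mutant replicate 2 allows up to 0.0705 CPM (3 counts, counting error only). A fit of the 28298 genes with any count gave a log2 fold change of -3.11 (SE 0.75, edgeR adjusted p = 0.044). DESeq2 on all 6 hearts gave an adjusted p of 0.014. The filtered fit without control replicate 1 kept the gene and gave a log2 fold change of -3.63. There it passed the filter only through the remaining controls, where it is high, so no test is read from that fit.

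Across the pericyte genes other than Rgs5, 0 of 6 tested genes passed an adjusted p of 0.05 with edgeR, as did 0 of all 17125 genes tested, either lower or higher (0%). At an unadjusted p under 0.05, 2 of the 6 (Kcnj8 and Ndufa4l2) were lower and 0 higher, against 9.98% and 9.48% of all tested genes. The same 2 genes were the ones whose hearts did not overlap, which held for 12.8% of all tested genes in the lower direction. DESeq2 called 3 of the 7 other genes lower (Kcnj8, Ndufa4l2 and Higd1b) and 0 higher, against 3.43% and 2.67% of all genes. The same 3 were called in the fit of all genes with a count, where 1.21% of genes were lower. Without control replicate 1 edgeR called Kcnj8 and Ndufa4l2 lower, where 2.49% of genes were lower and 1.85% higher. Higd1b was called there as well, but it passed the filter only through the controls, so that call is not read as support. At an adjusted p under 0.1, edgeR on all 6 hearts called 1 of the 6 lower (Ndufa4l2) and 0 higher, against 1.25% and 1.14% of all tested genes. The median log2 fold change was -0.25 over the 7 tested pericyte genes and -0.21 without Rgs5, beside -0.0017 over all tested genes. Rgs5, Ndufa4l2, Kcnj8 and Higd1b had means at least 1.67-fold lower in mutants, although the hearts overlapped for Higd1b, and Pdgfrb, Cspg4, Abcc9 and Anpep had 95% intervals that include 0.

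**Figure D2:**
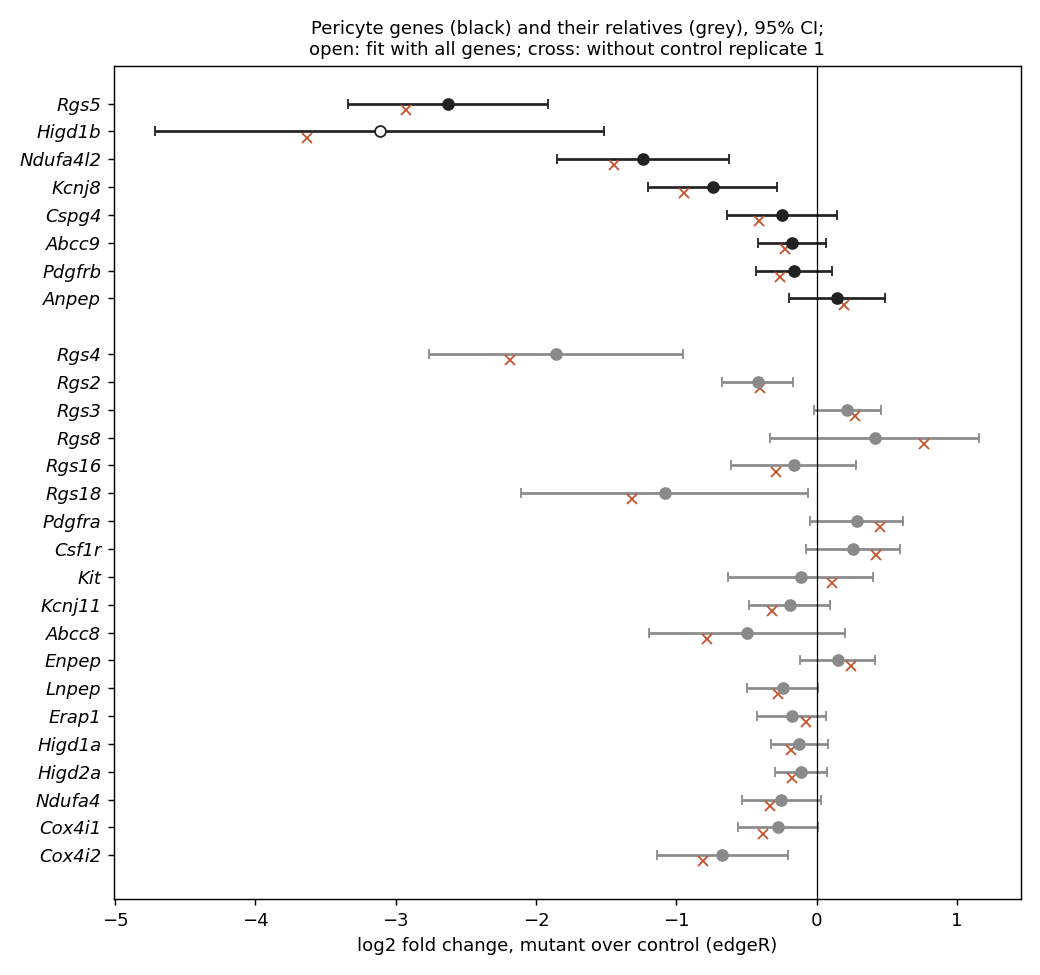
Log2 fold change, mutant over control, of the pericyte genes (black) and of their relatives (grey), with 95% intervals from edgeR on 3 and 3 hearts; open symbols are from the fit of all genes with a count and crosses from the fit without control replicate 1. Rgs5, at -2.62, was chosen for its low level in the mutants, so its interval is not read as a test. The intervals of Ndufa4l2 (-1.24), Kcnj8 (-0.74) and Higd1b (-3.11, fit of all genes with a count) lie below 0. Among the relatives those of Rgs4, Rgs2, Cox4i2 and Rgs18 lie below 0 too. No interval is adjusted for the number of genes. The intervals of Pdgfrb, Cspg4, Abcc9 and Anpep cross 0.

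Per kb of merged annotated exons, which is not the length of a given transcript, the order of the genes differed between the groups. In controls, Abcc9 (19.4 ± 2.86 CPM per kb) and Rgs5 (17.97 ± 7.13) came first and overlapped in range. Ndufa4l2 (12.3), Pdgfrb (9.42) and Kcnj8 (8.34) followed, each overlapping the next, then Cspg4 (4.42) and Anpep (3.11), which overlapped as well, and last Higd1b (0.97). Only the steps from Kcnj8 to Cspg4 and from Anpep to Higd1b were free of overlap. In mutants, Abcc9 (17.2 ± 0.50 CPM per kb) was followed by Pdgfrb (8.40 ± 0.61), Ndufa4l2 (5.12), Kcnj8 (5.002), Cspg4 (3.72) and Anpep (3.44), and Rgs5 (2.92 ± 0.56) took position 7 of 8, ahead of Higd1b (0.11). There the range of Rgs5 overlapped that of Anpep, Anpep overlapped Cspg4, and Kcnj8 overlapped Ndufa4l2, while the other neighbours were apart.

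Set against Pdgfrb in the same heart, Kcnj8 had a ratio of 0.407 ± 0.062 in controls and 0.279 ± 0.047 in mutants, and Ndufa4l2 had a ratio of 0.258 ± 0.043 and 0.121 ± 0.031 (SD, n = 3; exact two-sided permutation p = 0.1 for each, the smallest possible, and 0.2 after adjustment over the 4 ratios). All 4 permutation tests used log2 ratios. Apart from Rgs5, Kcnj8 and Ndufa4l2 were the tested genes whose hearts did not overlap, and Cspg4, Abcc9 and Anpep were not tested against Pdgfrb. The adjustment does not cover that choice. The summed level of 11 pan-endothelial genes was 1021 to 1242 CPM in controls and 1074 to 1122 CPM in mutants. Per 1000 CPM of these genes, Pdgfrb amounted to 45.8 ± 5.43 CPM in controls and 41.6 ± 2.85 in mutants (exact two-sided permutation p = 0.3). Relative to the same endothelial sum, Rgs5 amounted to 39.5, 97.9 and 81.2 CPM in the control hearts and to 11.4, 9.85 and 14.95 in the mutant hearts.

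Rgs5 lies at chr1:169655501-169695813 on the plus strand (GRCm38), and its nearest family member, Rgs4, lies 45.7 kb away at chr1:169741477-169747642 on the minus strand. Rgs4 encodes another GTPase-activating protein for Gq and Gi and is also expressed by mural cells. It was measured at 1.87, 4.90 and 4.32 CPM in controls and at 1.06, 0.71 and 1.30 CPM in mutants, with no overlap and with control replicate 1 lowest among the controls. Its log2 fold change was -1.86 (SE 0.39, edgeR adjusted p = 0.088), and -2.18 without control replicate 1 (edgeR adjusted p = 0.011). The only other tested gene within 200 kb of Rgs5, Nuf2, a kinetochore gene, had a log2 fold change of -0.05. Around Kcnj8, the 5 other tested genes within 200 kb, Abcc9 among them, had log2 fold changes from -0.28 to 0.21.

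The 250 bases before the RefSeq start sites of these 2 neighbouring pairs (GRCm38.p6) are shown because in each pair the genes share a chromosome region and can be compared by their level. Windows are at chr1:169655251-169655500 (Rgs5, plus strand), chr1:169747643-169747892 (Rgs4, minus strand), chr6:142571615-142571864 (Kcnj8, minus strand) and chr6:142702275-142702524 (Abcc9, minus strand), each printed 5′ to 3′ on the strand of its gene. Capitals mark matches, on either strand, to TATAAA (the TATA box), TGGGAA (the core bound by the Notch factor RBPJ), ACGTG and GCGTG (cores of hypoxia response elements) and the CArG box of serum response factor.
Rgs5: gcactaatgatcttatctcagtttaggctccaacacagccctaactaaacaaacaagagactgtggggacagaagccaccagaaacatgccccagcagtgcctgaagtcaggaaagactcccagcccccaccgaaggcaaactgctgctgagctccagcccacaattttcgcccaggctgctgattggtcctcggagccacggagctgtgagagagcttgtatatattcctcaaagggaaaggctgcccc
Rgs4: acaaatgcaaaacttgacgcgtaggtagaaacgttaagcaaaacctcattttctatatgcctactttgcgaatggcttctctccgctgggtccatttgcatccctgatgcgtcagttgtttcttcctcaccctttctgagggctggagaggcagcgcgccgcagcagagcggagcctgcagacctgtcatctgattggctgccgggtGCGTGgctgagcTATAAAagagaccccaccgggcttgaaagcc
Kcnj8: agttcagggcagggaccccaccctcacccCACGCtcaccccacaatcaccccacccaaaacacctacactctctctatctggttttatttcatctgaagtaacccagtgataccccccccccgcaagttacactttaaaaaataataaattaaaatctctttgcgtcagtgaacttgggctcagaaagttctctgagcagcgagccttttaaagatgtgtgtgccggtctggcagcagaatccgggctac
Abcc9: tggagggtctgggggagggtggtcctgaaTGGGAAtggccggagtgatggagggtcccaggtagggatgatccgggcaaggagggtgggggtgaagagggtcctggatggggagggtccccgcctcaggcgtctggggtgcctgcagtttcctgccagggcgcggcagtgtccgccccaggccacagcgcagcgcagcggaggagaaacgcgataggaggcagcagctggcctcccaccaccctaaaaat
The window of Rgs5 held none of these letters, and that of Rgs4 held TATAAA and GCGTG. Kcnj8 had GCGTG on the opposite strand and Abcc9 had TGGGAA. Among 32851 promoter windows of the same length, 12.4% held TATAAA, 21.6% TGGGAA, 16.6% ACGTG, 28.2% GCGTG and 1.47% the CArG box, so each match shown is of a kind that many promoters hold. Windows were matched for 5 of the 8 pericyte genes.

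Genes related to the pericyte genes were examined to see whether the differences followed families. Of 22 relatives, 19 were tested. Of these, 14 had a lower and 5 a higher mean in mutants, 0 passed the edgeR threshold, and DESeq2 called 3 lower (Rgs4, Rgs2 and Cox4i2) and 0 higher. Their median log2 fold change was -0.18. For comparison with this list and those below, DESeq2 called 3.43% of all genes lower and 2.67% higher. Without control replicate 1, edgeR called 2.49% of all genes lower and 1.85% higher. Higd1c had 0 counts in every heart, and Rgs1 and Flt3 were also too low to be tested. Among the regulators of G protein signalling, Rgs2, which acts on Gq, was 19.8 ± 2.55 CPM in controls and 14.8 ± 0.28 in mutants, with no overlap (log2 fold change -0.42, edgeR adjusted p = 0.12, DESeq2 adjusted p = 0.031). Rgs3 had a log2 fold change of 0.22, Rgs16 of -0.16 and Rgs8 of 0.41, and the groups overlapped for Rgs16 and Rgs8.

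Among the mitochondrial relatives, Cox4i2, the isoform of cytochrome c oxidase subunit 4 found in pericytes, was 4.28, 5.51 and 6.30 CPM in controls. In mutants it was 2.83, 3.95 and 3.35 CPM, below every control heart (log2 fold change -0.67, SE 0.20, edgeR adjusted p = 0.15, DESeq2 adjusted p = 0.049). The broadly expressed counterparts differed less, with log2 fold changes of -0.27 for Cox4i1, -0.25 for Ndufa4 and -0.12 for Higd1a, and their groups overlapped. These differences between isoforms were not tested directly. The receptor most similar to Pdgfrb, Pdgfra, a marker of fibroblasts and epicardium, had a log2 fold change of 0.29 (edgeR adjusted p = 0.31), and Enpep, a peptidase related to Anpep, of 0.15. The receptors Csf1r (0.26) and Kit (-0.11), the peptidases Lnpep (-0.24) and Erap1 (-0.18), the channel subunit Abcc8 (-0.50), Higd2a (-0.11) and Rgs18 (-1.08) had the log2 fold changes given, and of these the hearts were free of overlap for Rgs18. Without control replicate 1, Abcc8 had -0.78, Rgs8 0.77 and Kit 0.11, so that the sign of Kit turned.

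A list of 20 other genes of mural cells was compiled from general knowledge, with earlier results of these data already known. Of the 20 genes, 18 were tested. Of these 10 had a lower and 8 a higher mean in mutants, with a median log2 fold change of -0.06. edgeR called 0, DESeq2 called 3 lower (Rgs4, Heyl and Cox4i2) and 1 higher, and edgeR without control replicate 1 called 2 lower (Rgs4 and Heyl) and 1 higher. Heyl, a transcription factor induced by Notch in mural cells, was 25.6 ± 5.19 CPM in controls and 17.8 ± 0.55 in mutants without overlap (log2 fold change -0.52, edgeR adjusted p = 0.13, and 0.017 without control replicate 1). Gucy1a1, a subunit of the nitric oxide receptor guanylate cyclase, was higher instead, at 82.6 ± 7.23 and 104 ± 0.85 CPM (log2 fold change 0.33, edgeR adjusted p = 0.10001, DESeq2 adjusted p = 0.020). The upstream receptor of Heyl, Notch3, overlapped between groups and had a log2 fold change of -0.26 (edgeR adjusted p = 0.41). Notch3 was chosen for its role and not by the naming rule. Nr2f2 (COUP-TFII), a factor of venous endothelium and of mural and other mesenchymal cells, was 26.1 to 32.1 CPM in controls and 33.8 to 37.8 CPM in mutants (log2 fold change 0.28, edgeR adjusted p = 0.20) and was named after its values were seen.

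Signals that recruit and hold mural cells were covered by 19 genes, all of them tested. In this list 11 had a lower and 8 a higher mean in mutants, edgeR called 0, and DESeq2 called 1 lower (Angpt2) and 0 higher, with a median log2 fold change of -0.01 that turned to 0.06 without control replicate 1. In that fit edgeR called 1 lower (Angpt2) and 2 higher. Pdgfb, the endothelial ligand of the Pdgfrb receptor, which is given for this role, was 22.8, 31.1 and 45.7 CPM in controls and 21.998, 24.5 and 24.95 CPM in mutants. The groups overlapped through control replicate 1, and the log2 fold change was -0.48 (SE 0.22, edgeR adjusted p = 0.27). Angpt2, an endothelial ligand that loosens mural contact, was 4.02 ± 2.93 CPM in controls and 1.25 ± 0.23 in mutants without overlap (log2 fold change -1.66, edgeR adjusted p = 0.14, and 0.045 without control replicate 1). Angpt1, the ligand that mural and mesenchymal cells supply to the endothelial Tie2 receptor, was 92.4, 41.2 and 39.3 CPM in controls and 69.8, 92.9 and 73.8 CPM in mutants and is given for its role. Control replicate 1 lay with the mutants, and the log2 fold change was 0.45 (edgeR adjusted p = 0.44), or 0.97 without that heart (edgeR adjusted p = 0.013). The TGF-β receptors, which take part in mural differentiation, differed in opposite directions, with a log2 fold change of 0.29 for Tgfbr1 and -0.32 for Tgfbr2, and neither passed the test (edgeR adjusted p = 0.14 and 0.19).

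**Figure D3:**
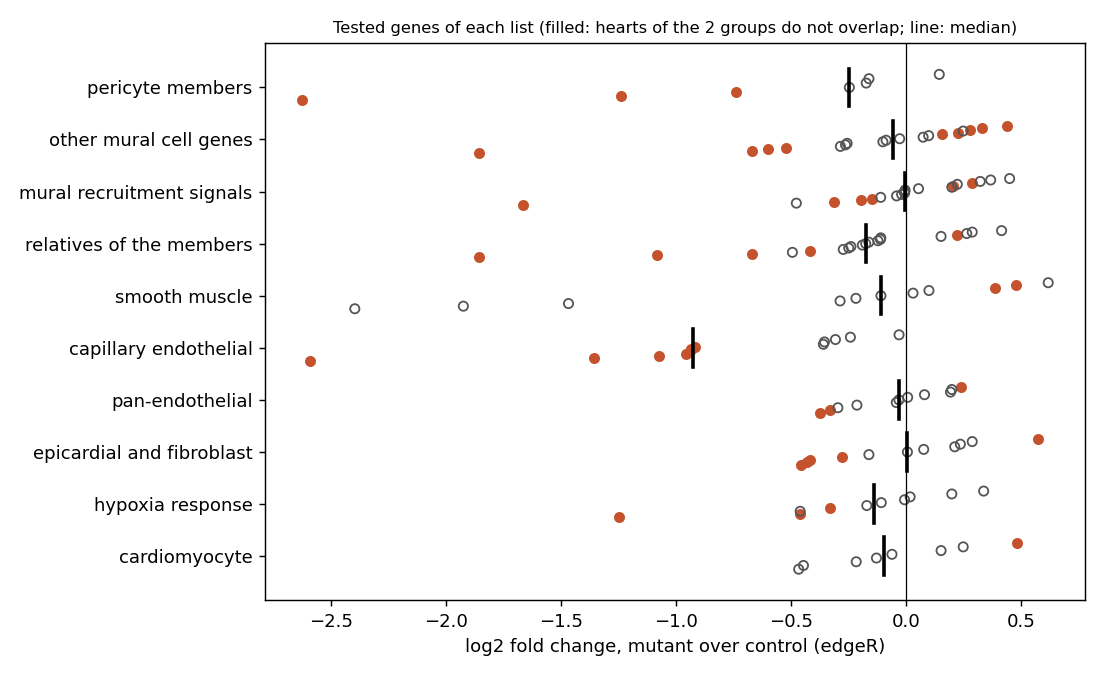
Log2 fold change, mutant over control, of the tested genes in each gene list, with a line at the list's median and filled symbols for genes whose 3 mutant hearts do not overlap the 3 control hearts. All 12 capillary endothelial genes lie below 0 (median -0.93), whereas the medians of the other mural, recruitment and pan-endothelial lists lie between -0.06 and -0.01.

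Lists for other cells of the heart, also chosen with earlier results of these data known, were counted in the same way. In each of them edgeR on all 6 hearts called 0 genes. Of 12 capillary endothelial genes, 12 had a lower mean in mutants, 7 without overlap, and DESeq2 called 6 lower and 0 higher. Over all genes, 12.8% were lower without overlap, and DESeq2 called 3.43% lower and 2.67% higher. The summed level of the 12 genes was 462 to 746 CPM in controls and 338 to 371 CPM in mutants, and their median log2 fold change was -0.93. Cd36, a fatty acid transporter, was 292 ± 46.4 and 155 ± 22.6 CPM (log2 fold change -0.92, edgeR adjusted p = 0.065), Fabp4, a fatty acid binding protein, had a log2 fold change of -0.96, and Meox2, a capillary transcription factor, of -1.08. Without control replicate 1 edgeR called 7 of the 12 lower, against 2.49% of all genes. Among the 7 were Cd36 (adjusted p = 0.012), Fabp4 (0.0012) and Meox2 (0.0040). The part of these cells in the level of the pericyte genes was not tested.

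Of 11 pan-endothelial genes, 6 had a lower and 5 a higher mean, with a median log2 fold change of -0.03. Esam and Cd34, a junction protein and a surface sialomucin, had log2 fold changes of -0.33 and -0.38 without overlap, while Tie1, an endothelial receptor, had 0.24. In this list DESeq2 called 2 lower, and edgeR without control replicate 1 called 1 lower (Cd34, adjusted p = 0.020).

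Smooth muscle genes, which mark the other type of mural cell, showed no common direction. Of 11 tested, 6 had a lower and 5 a higher mean in mutants (median log2 fold change -0.11), and DESeq2 called 2 in each direction. The most negative log2 fold changes were those of Myh11, Actg2 (-1.93, edgeR adjusted p = 0.15) and Lmod1 (-1.47, edgeR adjusted p = 0.21), with overlapping hearts. Among the 5 higher genes the largest was 0.62, for Tagln (edgeR adjusted p = 0.28). Actg2, Lmod1 and Tagln were named after their values were seen. Myh11, the smooth muscle myosin heavy chain, was 0.60, 2.96 and 4.75 CPM in controls and 0.50, 0.71 and 0.34 CPM in mutants, and control replicate 1 lay within the mutant range (log2 fold change -2.40, edgeR adjusted p = 0.13, and 0.010 without that heart). Cnn1 (calponin) and Synpo2 (an actin-binding protein) were higher in every mutant heart than in any control, with log2 fold changes of 0.48 and 0.39. Without control replicate 1 edgeR called 2 of the list lower and 1 higher, the latter being Synpo2 (adjusted p = 0.044).

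Epicardial and fibroblast genes are given because most pericytes of the embryonic heart descend from the epicardium. Of these 11 genes, 5 had a lower and 6 a higher mean (median log2 fold change 0.00). Lum and Postn, matrix genes of fibroblasts, had log2 fold changes of -0.42 and -0.43, and Upk3b, a mesothelial gene, of 0.57, each without overlap. DESeq2 called 3 lower and 1 higher. Without control replicate 1 edgeR called 1 lower and 1 higher, the latter being Upk3b (adjusted p = 0.035), and the list's median was -0.06 in place of a value just above 0. The summed level was 1407 to 1912 CPM in controls and 1352 to 1757 CPM in mutants. Among 10 hypoxia response genes, given because Ndufa4l2 and Cox4i2 are regulated by oxygen, 7 had a lower and 3 a higher mean (median log2 fold change -0.14), and DESeq2 called 2 lower. Egln3, a prolyl hydroxylase induced by HIF, was 54.7 ± 6.13 CPM in controls and 23.0 ± 4.32 in mutants (log2 fold change -1.25, edgeR adjusted p = 0.065, and 0.0095 without control replicate 1). The log2 fold changes of Pdk1, a kinase that limits pyruvate use, and of Adm, a vasodilator peptide, were -0.33 and -0.46.

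Cardiomyocyte genes, which could bear on Abcc9, were lower for 5 and higher for 3 of 8 (median log2 fold change -0.10). DESeq2 called 1 higher (Myh6) and 0 lower, and edgeR without control replicate 1 called 0 higher and 1 lower (Tnni3). Myh6, the alpha myosin heavy chain, had a log2 fold change of 0.48 without overlap (edgeR adjusted p = 0.18, DESeq2 adjusted p = 0.038). Tnni3 (cardiac troponin I) had -0.47 (edgeR adjusted p = 0.22, and 0.030 without control replicate 1) and Tnnt2 (cardiac troponin T) -0.22. In the list of other tissues, 4 of 8 genes were tested and 3 of these had a lower mean in mutants. Hbb-bt, a globin gene of red cells, was 1890, 3840 and 8706 CPM in controls and 1099, 1144 and 1893 CPM in mutants. Its edgeR adjusted p was 0.13, and 0.024 without control replicate 1. As for Rgs5, control replicate 1 was the lowest control, and the part of blood in the result was not tested. Hba-a1, the other globin gene, had a log2 fold change of -1.27 and Ptprc (CD45, on white cells) of -0.53. The summed level of the list was 4083 to 18123 CPM in controls and 2717 to 4958 CPM in mutants. The liver gene Alb had 0, 12 and 12 counts in the control hearts and 0, 1 and 0 in the mutant hearts. Afp, also made by fetal liver, had 2, 24 and 12 counts in controls and 3, 7 and 0 in mutants. Control replicates 2 and 3, which had the highest Rgs5, thus also held the most liver counts. Without control replicate 1 both genes passed the filter only through those controls, so no test is read from that fit. The part of tissue from outside the heart in the result was not tested.

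To find which genes shared the pattern of Rgs5, the log2 CPM of each gene was centred on its mean over the 6 hearts and compared with Rgs5 by the root-mean-square difference, over the 10179 other tested genes with a mean of at least 10 CPM. The most similar were Ptgds (0.351), Dpt (0.394), Myom2 (0.430), RP24-378G4.3 (0.459) and Gipr (0.474). Ptgds encodes a prostaglandin D synthase, Dpt the matrix protein dermatopontin, Myom2 a protein of the sarcomere M band and Gipr the receptor for the gut hormone GIP. Ptgds was 21.6, 53.8 and 54.3 CPM in controls and 11.99, 8.67 and 12.4 CPM in mutants, and control replicate 1 again lay between the mutants and the other controls. None of the 5 is in the pericyte or mural lists. Mural genes with a mean under 10 CPM, Rgs4, Foxs1 and Cox4i2 among them, were not searched.

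Among the pericyte genes, Kcnj8 was closest to Rgs5, at rank 69 (0.939). Cspg4 took rank 842, Pdgfrb 1485, Abcc9 1772 and Anpep 8223 of 10179. Ndufa4l2 and Higd1b had means under 10 CPM and were not ranked. These ranks describe 6 hearts in 2 groups, in which any gene that is lower in the mutants resembles Rgs5 to some degree.

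**Figure D4:**
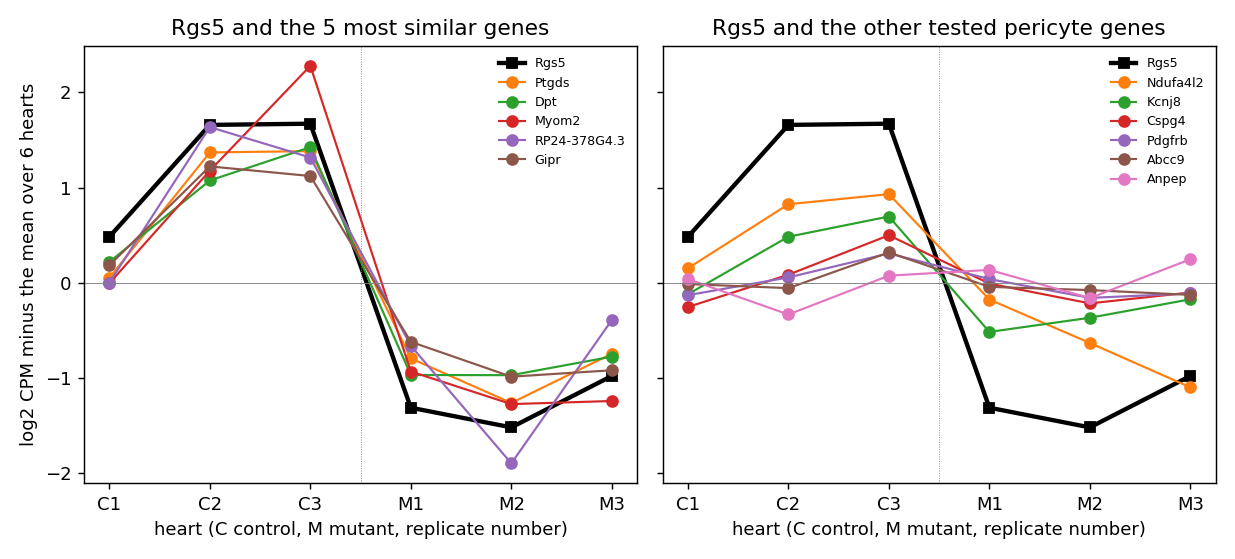
Log2 CPM of each gene minus its mean over the 6 hearts, for Rgs5 with the 5 most similar genes (left) and with the other tested pericyte genes (right); lines only join the points of a gene. Control replicate 1 lies between the other controls and the mutants for Rgs5 and for Ptgds, and the profiles of Pdgfrb, Cspg4, Abcc9 and Anpep are flatter than that of Rgs5.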

How the data were processed

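RNA of 6 whole hearts, 3 per group, was sequenced by the authors with 76 bp paired-end reads. The authors mapped these with STAR 2.4.2a (GRCm38, GENCODE vM6) and counted reads per gene with summarizeOverlaps, and the raw counts were deposited without normalization. From the authors' second table only gene symbols were used; its columns of mean, fold change and p-value were not. Overlap and strand settings are not given in the sources used here.

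The filter on low counts was filterByExpr of edgeR 4.0.16 (minimum count 10 and minimum total 15, with limma 3.58.1, R 4.3.3). Libraries were scaled by TMM and fitted by quasi-likelihood with condition as the only term. Benjamini-Hochberg adjustment ran over every gene tested, with a threshold of 0.05. The SE is the size of the log2 fold change divided by the square root of F. Exon lengths (all annotated exons merged) and coordinates came from GENCODE vM21, also on GRCm38 (45229 of 45792 identifiers matched), and promoters from RefSeq. No pair of libraries agreed within counting noise (lowest chi-square per degree of freedom 20.6), and each heart counted as 1 replicate. The common biological coefficient of variation was 0.153.

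The pericyte genes and the 10 other lists were chosen with earlier results of these data known. Named in the text are all 8 pericyte genes, their relatives, the 3 genes of each other list with the smallest edgeR p and a mean of at least 1 CPM, and the 5 genes most similar to Rgs5. Alternatives were RLE size factors, DESeq2 1.42.0, all genes with at least 1 count, thinning to the smallest library, leaving out each heart, a replicate block, a threshold of 0.1, and levels relative to the pan-endothelial sum or, added after seeing the data, to Pdgfrb. The steps were tested on simulated data.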

Additional observations from a re-analysis of the deposited data

How the results depend on the processing

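The number of pericyte genes called lower (Rgs5 not counted) was 0 in the edgeR fit of all hearts. It was 3 with DESeq2, which called 3.43% of all genes lower and 2.67% higher. With all genes that had at least 1 count it was also 3, and 1.21% of those genes were called lower. At a threshold of 0.1 it was 1 (Ndufa4l2), and 1.25% of all tested genes passed in the lower direction. Leaving out each heart in turn gave 0 to 3. The 3 came from the fit without control replicate 1, where 2.49% of all genes were called lower and 1.85% higher. That count includes Higd1b, which passed the filter there only through the controls. Leaving out any other heart gave 0. Genes of the 10 other lists called in either direction, the pericyte genes not counted, numbered 0 in the edgeR fit of all hearts. They numbered 25 with DESeq2, 17 with all genes that had a count, and 0 to 23 on leaving out each heart. The log2 fold change of Kcnj8 was -0.73 (edgeR adjusted p = 0.032) with all genes that had a count and -0.74 (adjusted p = 0.0074) with DESeq2, and that of Ndufa4l2 was -1.23 (edgeR adjusted p = 0.010) and -1.25 (adjusted p = 1.76e-04).

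Leaving out each heart in turn moved the log2 fold change of Rgs5 between -2.92 and -2.44, of Kcnj8 between -0.94 and -0.56, of Ndufa4l2 between -1.51 and -1.04, of Pdgfrb between -0.26 and -0.04, of Cspg4 between -0.41 and -0.03, of Abcc9 between -0.24 and -0.05 and of Anpep between 0.03 and 0.25. The difference of Rgs5 from the mean of the other pericyte genes moved between -2.29 and -1.87. The median log2 fold change of the pericyte genes was -0.49 with all genes that had a count and -0.50 with DESeq2, and ranged from -0.68 to -0.047 on leaving out a heart. Higd1b entered this median in some of these fits and not in others. For the pericyte genes named here no direction reversed under the alternatives run, whereas without control replicate 1 the sign turned for Kit and for the medians of the recruitment and the epicardial and fibroblast lists.

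The hearts share replicate numbers, and the deviations of same-numbered hearts from their group means had correlations of 0.0093, -0.116 and -0.094. The main fit treated the numbers as names only. Whether same-numbered hearts shared a litter or preparation was not tested. With the replicate number as a block, 14 genes were called in place of 0, 0 pericyte genes among them, and the log2 fold change of Kcnj8 was -0.70 and of Ndufa4l2 -1.25. With 3 hearts a group the precision is limited by their number, and for Higd1b also by few counts.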
